A study of Mus musculus with 14 samples.

Results

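Rab GTPases are small GTP-binding proteins that mark the membranes of the secretory and endocytic pathways. In the GTP-bound form each Rab recruits effectors that move, tether or fuse vesicles, guanine nucleotide exchange factors (GEFs) load it with GTP, GTPase-activating proteins (GAPs) switch it off, and prenylation with escort proteins and GDP dissociation inhibitors puts it on and takes it off membranes. In the mouse oocyte, vesicles that carry Rab11a are known to organise the cytoplasmic actin network, and Rab3 and Rab27 proteins are known for the docking of secretory granules. The mRNAs of these genes were followed here in oocytes with the small RNA slicing or the small RNA production pathway disrupted. The members are all genes whose symbol is Rab with a number and at most a letter and a further digit. They are 59 of the 20337 genes that could be given a symbol in the count tables, and they hold 67 RefSeq transcripts. For the 8 Rab genes with more than 1 transcript, the transcript with the higher mean count stands for the gene. The other transcript had 96.7% to 100% of its counts, so these pairs largely share their reads.

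The samples were RNA-seq libraries from full-grown, germinal vesicle-intact oocytes, 20 oocytes from 3 mice per library, pooled by genotype, from females of 4 to 6 weeks primed 48 h earlier with 5 IU of equine chorionic gonadotropin. There were 3 Ago2 fl/fl libraries (floxed Ago2 alleles, labelled wild-type and used as the control), 3 Ago2 ADH libraries (Ago2 fl/ADH; Cre/+, in which Zp3-driven Cre removes the floxed allele in the growing oocyte and leaves a knock-in allele without slicer activity), 2 Ago2 null libraries, 3 Dicer WT libraries and 3 Dicer KO libraries (Dicer deleted in oocytes only). All females were described as mostly C57BL6 from crosses of several transgenic strains. The comparisons ask what happens to transcripts with AGO2 slicing strongly reduced (Ago2 ADH vs. Ago2 fl/fl), with Ago2 deleted (Ago2 null vs. Ago2 fl/fl) and with Dicer deleted (Dicer KO vs. Dicer WT). In the paper's breeding scheme Ago2 null females are Ago2 fl/fl with Cre, and the Ago2 fl/fl controls have no Cre. Ago2 ADH oocytes keep a single Ago2 allele, so slicing, allele number and Cre cannot be told apart there. The paper also reports residual cleavage and lower miRNA levels in them. The Ago2 ADH and Ago2 null comparisons share their 3 control libraries. Replicates were separate collections, each a tube with the oocytes of several animals of a genotype. The lane codes that came with the deposited tables differ between the Ago2 genotypes and are the same within each, and effects of lane and of genotype cannot be told apart in those comparisons. In pooled oocytes, fewer oocytes with a transcript and less of the transcript per oocyte cannot be told apart.

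Libraries held 29380403 to 58285057 counts on transcripts, so that 3 counts, taken as the floor of detection, correspond to 0.0515 to 0.102 CPM, the usual read count scaled to library size. Ago2 mRNA was 24.1 to 25.6 CPM in Ago2 fl/fl, 12.4 to 13.8 CPM in Ago2 ADH and 5.27 to 7.18 CPM in Ago2 null oocytes. It was also lower in Dicer KO (15.5 to 20.6 CPM) than in Dicer WT oocytes (24.7 to 27.3 CPM). Dicer1 mRNA was 628 to 654 CPM in Ago2 fl/fl, 975 to 1010 CPM in Ago2 ADH and 939 to 949 CPM in Ago2 null oocytes. Both mRNAs thus also differed in the series in which the gene was not targeted. Dicer1 mRNA was 745 to 779 CPM in Dicer WT and 1670 to 1930 CPM in Dicer KO oocytes, and a count over the whole transcript does not check a deletion of part of the gene. Reads set aside for having several alignments came to 0.557 to 0.597 per counted read in Ago2 fl/fl, 1.579 to 1.661 in Ago2 ADH, 1.566 to 1.656 in Ago2 null, 0.388 to 0.536 in Dicer WT and 0.939 to 1.191 in Dicer KO libraries. The part of this difference in the results below was not tested. All 12 oocyte markers were detected, with summed levels of 11900 to 18400 CPM. The 12 granulosa and cumulus markers summed to 80.5 to 87.7 CPM in Ago2 fl/fl, 67.5 to 73.0 in Ago2 ADH, 60.1 to 63.9 in Ago2 null, 99.5 to 107 in Dicer WT and 83.0 to 87.8 in Dicer KO oocytes, so that the sum was lower in each mutant. Its members went both ways in Ago2 ADH, where 1 of 10 tested rose (Cyp11a1, from a mean of 1.42 to 4.56 CPM) and 3 fell, while 0 rose and 1 of 10 fell in Ago2 null and 0 rose and 3 of 9 fell in Dicer KO. Of all genes tested, 21.0% rose and 19.8% fell in Ago2 ADH, 18.6% and 18.7% in Ago2 null, and 16.9% and 17.6% in Dicer KO. The part of these markers in the results was not tested. Among them Cyp19a1 and Nr5a2 made up most of the sum, while the granulosa markers Foxl2 and Amh had at most 7 and 12 counts in any library. Of the 6 blood and vessel markers only Pecam1 exceeded 11 counts, and the 6 theca and stroma markers summed to 0.625 to 2.49 CPM.

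Rab11b had the largest called increase of all Rab genes in Dicer KO oocytes. In both Ago2 mutants it lay beside the low-level gene Rab44, at log2 fold changes of 2.44 for Rab11b and 2.46 for Rab44 in Ago2 ADH and 2.46 and 2.45 in Ago2 null. Its sequence is shown first because the genome holds a close copy. Rab11b (chr17:33742484-33760530 in GRCm38, minus strand, with 308 exonic bases shared with the opposite-strand gene Gm17251) has an annotated processed pseudogene, Rab11b-ps2, at chr19:7398424-7399077 on the minus strand. The pseudogene matches bases 1 to 654 of the 657-base Rab11b coding sequence at 99.847% identity, with 1 substitution, G152A, counted from the first base of the start codon. The base that differs is in capitals below, with 25 bases on either side.
Rab11b: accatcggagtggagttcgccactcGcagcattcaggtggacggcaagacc
Rab11b-ps2: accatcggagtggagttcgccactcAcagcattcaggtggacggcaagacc
No other GENCODE gene overlaps the pseudogene, and it had no row of its own in the count tables. A search of the GENCODE transcripts for pseudogenes with at least 250 matched bases at 95% identity or more found 7 Rab genes with such a copy. The other matches were Rab5b with Gm13991 (648 bases, 99.383%), Rab7 with Rab7-ps1 (622 bases, 98.392%), Rab9 with Rab9b-ps1 (606 bases, 96.865%), Rab2a with Gm5865 (637 bases, 96.389%), Rab6a with Gm13082 (557 bases, 95.332%) and Rab8b with Gm20689 (279 bases, 100%), the last inside the gene Ift80 on the same strand. Since reads with several alignments were set aside, counts of these 7 genes can miss reads from the matched stretches. Reads from the copies may also have been assigned to them. Neither was tested.

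The start regions of Rab11b and Rab11a, which moved differently, and of Rab8b and Rab8a, which fell together, are given next (RefSeq, GRCm38.p6, 250 bases before to 50 bases after the start). Capitals mark the GC box GGGCGG and the CCAAT box on either strand.
Rab11b (chr17:33760437-33760736, minus strand): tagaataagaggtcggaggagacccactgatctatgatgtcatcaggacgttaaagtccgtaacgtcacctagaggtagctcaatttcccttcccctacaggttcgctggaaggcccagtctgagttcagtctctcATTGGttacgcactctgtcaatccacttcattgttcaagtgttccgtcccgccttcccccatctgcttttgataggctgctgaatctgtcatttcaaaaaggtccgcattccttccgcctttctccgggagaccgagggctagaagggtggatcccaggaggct
Rab11a (chr9:64737707-64738006, minus strand): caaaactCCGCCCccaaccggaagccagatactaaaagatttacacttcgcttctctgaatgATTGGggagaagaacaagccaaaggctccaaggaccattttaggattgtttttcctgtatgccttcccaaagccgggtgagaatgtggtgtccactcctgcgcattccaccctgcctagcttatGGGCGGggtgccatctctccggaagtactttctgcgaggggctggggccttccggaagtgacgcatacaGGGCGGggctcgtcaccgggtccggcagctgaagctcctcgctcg
Rab8b (chr9:66919656-66919955, minus strand): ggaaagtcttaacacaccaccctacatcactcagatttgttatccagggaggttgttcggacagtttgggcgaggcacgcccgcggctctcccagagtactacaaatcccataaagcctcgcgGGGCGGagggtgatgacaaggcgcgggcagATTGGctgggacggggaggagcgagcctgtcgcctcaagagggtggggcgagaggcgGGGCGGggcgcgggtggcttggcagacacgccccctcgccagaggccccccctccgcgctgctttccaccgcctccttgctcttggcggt
Rab8a (chr8:72160950-72161249, plus strand): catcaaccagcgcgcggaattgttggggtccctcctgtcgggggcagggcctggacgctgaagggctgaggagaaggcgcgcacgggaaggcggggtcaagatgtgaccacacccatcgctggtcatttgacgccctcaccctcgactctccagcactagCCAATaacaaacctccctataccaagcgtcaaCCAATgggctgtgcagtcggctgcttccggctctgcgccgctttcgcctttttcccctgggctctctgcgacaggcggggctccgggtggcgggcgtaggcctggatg
Rab11a held 3 GC boxes and Rab8b held 2 in these windows, while Rab11b and Rab8a held 0. Of the 48 Rab genes with a listed start region, 34 (70.8%) held GGGCGG, against 35.9% of all 27025 start regions of this length. The CCAAT box was in 47.9% of the Rab regions and 37.9% of all regions, TATAAA in 8.33% and 14.2%, CACGTG in 10.4% and 7.24%, and TAATTG in 2.08% and 8.15%. Both strands were searched, and a match describes the letters only. The regions of all genes were not limited to genes detected here. Their base composition was not compared with that of the Rab regions, so these shares are not shown to be a trait of Rab genes.

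In control oocytes Rab levels spanned several orders of magnitude (levels in CPM per kilobase of transcript, for comparison between genes). Rab7, the Rab of late endosomes and lysosomes, had the highest level in Ago2 fl/fl oocytes (230 ± 16.0, SD, n = 3), followed by the ER-to-Golgi Rab Rab2a (127 ± 9.53), the lysosome-related organelle Rab Rab38 (115 ± 0.667), the recycling endosome Rab Rab11a (107 ± 8.37) and the Golgi and endosome Rab Rab14 (94.6 ± 3.06). Of the neighbours in this order, Rab38 and Rab11a differed by less than their SDs added together, and the other neighbours by more. These 5 genes made up 59.1% of the summed Rab level per kilobase in Ago2 fl/fl, 57.8% in Ago2 ADH, 57.4% in Ago2 null, 62.2% in Dicer WT and 60.3% in Dicer KO oocytes. The next group was formed by Rab21 of early endosomes (60 ± 2.67), Rab6a of the Golgi (56.0 ± 1.81) and Rab10 of exocytic vesicles (56.0 ± 0.958), and the last pair did not differ beyond their spread. At the other end, Rab26, Rab39 and Rab42 had no library above 3 counts. The plot of levels in the control groups shows that Rab7, Rab2a and Rab38 also led in Dicer WT oocytes, with Rab7 at 341 ± 41.1. Rab3b was 27.3 ± 0.891 in Ago2 fl/fl and 10.1 ± 0.986 in Dicer WT, and Rab9b was 0.228 ± 0.0781 and 1.05 ± 0.0717. The control groups were not tested against each other.

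**Figure D1:**
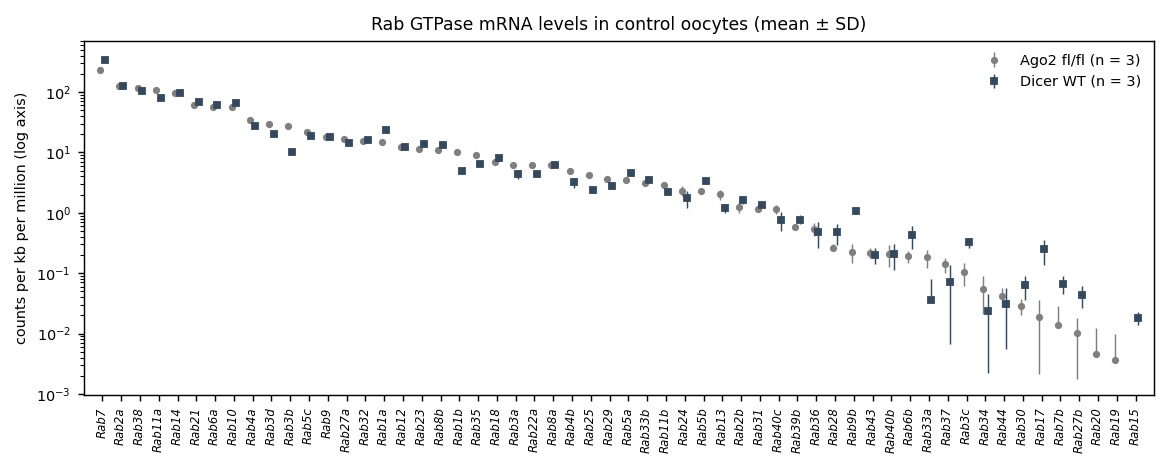
Rab mRNA levels in control oocytes, in CPM per kilobase on a log axis (mean ± SD, n = 3), for Rab genes with more than 3 counts in at least 1 library, ordered by Ago2 fl/fl. Levels of 0 are not drawn and the lower bar is left out where the SD exceeds the mean. Rab7 leads in both groups, at 230 and 341.

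All Rab genes together took 0.299% to 0.301% of the counts in Ago2 fl/fl oocytes, 0.266% to 0.272% in Ago2 ADH, 0.268% to 0.275% in Ago2 null, 0.307% to 0.318% in Dicer WT and 0.276% to 0.283% in Dicer KO oocytes. The share was thus lower in every mutant library than in every library of its control group. Rab7 carried part of this difference. Without Rab7 the shares were 0.246% to 0.256% in Ago2 fl/fl, 0.230% to 0.235% in Ago2 ADH, 0.234% to 0.244% in Ago2 null, 0.236% to 0.241% in Dicer WT and 0.223% to 0.229% in Dicer KO oocytes, again without overlap between a mutant and its control. Such a share weights abundant genes, and the median Rab log2 fold change was 0.04 in Ago2 ADH, 0.03 in Ago2 null and -0.04 in Dicer KO. How often other sets of genes separate in this way was not computed. A lower share is therefore not shown to be particular to the Rab genes or common to all of them.

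In Ago2 ADH oocytes 49 of the 59 Rab genes had enough counts to be tested, and 19 were called at a false discovery rate (FDR) of 1%, a share of 38.8% beside 40.9% of all 13801 genes tested. Of these, 10 rose (20.4%, against 21.0% of all genes) and 9 fell (18.4%, against 19.8%). In Ago2 null oocytes 51 were tested, 9 rose (17.6%, against 18.6% of all genes) and 7 fell (13.7%, against 18.7%), or 16 in all (31.4%, against 37.3%). In Dicer KO oocytes 48 were tested, 5 rose (10.4%, against 16.9% of all genes) and 9 fell (18.8%, against 17.6%), or 14 in all (29.2%, against 34.5%). These shares were not tested against each other. The median Rab log2 fold change was 0.04 in Ago2 ADH, 0.03 in Ago2 null and -0.04 in Dicer KO oocytes, beside 0.01, 0.01 and 0.00 over all genes. At an FDR of 5%, 14 Rab genes rose and 10 fell in Ago2 null (against 24.8% and 24.5% of all genes), and 9 rose and 11 fell in Dicer KO (against 22.8% and 23.4%). Rab9b, Rab11b, Rab25, Rab27a and Rab39b rose in each mutant, and Rab3b, Rab7, Rab8a, Rab8b, Rab29 and Rab32 fell in each. The share of all genes called the same way in each mutant, or called in none, was not computed. Such agreement is therefore not shown to be particular to the Rab genes. Since the Ago2 comparisons share their controls, calls in both are not independent of each other. A further 24 Rab genes were tested in each comparison and called in none, among them Rab1a, Rab2a, Rab11a, Rab14, Rab35 and Rab38, and 8 (Rab15, Rab17, Rab19, Rab20, Rab26, Rab34, Rab39 and Rab42) had too few counts to be tested in any. The remaining 4, Rab7b, Rab27b, Rab33a and Rab40b, could be tested in some of the comparisons and were called in none.

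**Figure D2:**
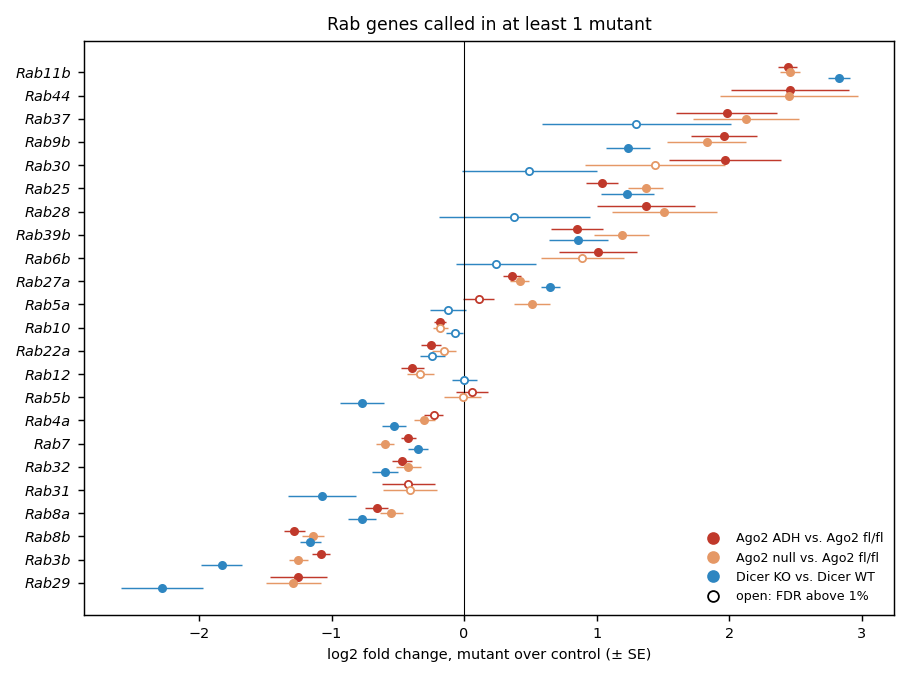
Log2 fold change of mutant over control (± SE) for the Rab genes called in at least 1 mutant, from edgeR fits on 3 against 3 libraries (2 against 3 for Ago2 null). Filled points passed an FDR of 1%, open points did not. Rab11b lies furthest to the right in Dicer KO (2.83) and Rab29 furthest to the left (-2.28).

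The recycling endosome group held the Rab11 subfamily, which splits in these oocytes. Rab11b was 16.5, 18.1 and 18.0 CPM in the 3 Ago2 fl/fl libraries, 94.4, 88.3 and 93.2 CPM in Ago2 ADH, and 93.3 and 95 CPM in Ago2 null. In the Dicer series it was 13.9, 12.8 and 14.0 CPM in WT and 95.8, 90.7 and 102 CPM in KO oocytes. All mutant libraries thus lay in one narrow range far above all controls. The log2 fold change was 2.44 ± 0.0692 (SE, adjusted p = 8.32e-16) in Ago2 ADH, 2.46 ± 0.0748 (adjusted p = 7.58e-14) in Ago2 null and 2.83 ± 0.0831 (adjusted p = 3.18e-15) in Dicer KO oocytes. Rab25, a member of the subfamily known from recycling in epithelia, rose from 4.34, 4.50 and 4.72 CPM in Ago2 fl/fl to 9.03, 9.04 and 8.91 CPM in Ago2 ADH and to 11 and 11.8 CPM in Ago2 null. It also rose from 2.38, 2.44 and 2.91 CPM in Dicer WT to 5.68, 6.05 and 6.33 CPM in Dicer KO. Its log2 fold changes were 1.04 ± 0.124 (adjusted p = 1.13e-06), 1.37 ± 0.134 (2.95e-07) and 1.23 ± 0.199 (5.34e-05). Rab11a, by contrast, was 272, 241 and 236 CPM in Ago2 fl/fl, 215, 230 and 238 in Ago2 ADH, 240 and 248 in Ago2 null, 188, 184 and 181 in Dicer WT and 184, 169 and 171 in Dicer KO oocytes. Mutant and control libraries overlapped in each case, and the log2 fold changes of -0.08 ± 0.0564, 0.01 ± 0.0638 and -0.07 ± 0.0602 had adjusted p of 0.229, 0.921 and 0.340. Per kilobase, Rab11b made up 2.54% ± 0.293 (SD) of the Rab11 subfamily in Ago2 fl/fl, 12.5% ± 0.758 in Ago2 ADH, 11.8% ± 0.123 in Ago2 null, 2.66% ± 0.120 in Dicer WT and 16.4% ± 0.905 in Dicer KO oocytes. Rab11a thus stayed the main member, and the subfamily total moved from 114 ± 8.06 to 121 ± 4.71 and 130 ± 3.05 in the Ago2 series and from 83.4 ± 1.17 to 95.9 ± 3.44 CPM per kilobase in the Dicer series. The exact permutation test on these shares cannot go below p = 0.1 with 3 against 3 libraries or with 2 against 3, and every Rab11b share difference had that p.

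Elsewhere in this group, Rab4a, a Rab of rapid recycling, fell in Ago2 null (log2 fold change -0.30 ± 0.0794, adjusted p = 0.00457) and in Dicer KO oocytes (-0.53 ± 0.0907, 9.53e-05), from 40.5, 40.5 and 37.4 CPM in Dicer WT to 29.6, 27.1 and 25 CPM. The Ago2 null call was lost without Ago2 fl/fl replicate 1 or 2 or Ago2 null replicate 1 (adjusted p up to 0.0629). In Ago2 ADH oocytes its change of -0.23 ± 0.0719 did not pass (adjusted p = 0.0125). Rab12 fell in Ago2 ADH oocytes by 0.39 on the log2 scale (SE 0.0876, adjusted p = 0.00114), a call that was lost when Ago2 fl/fl replicate 3 was left out (adjusted p = 0.0105), while it was 26.6, 25.1 and 23.6 CPM in Dicer WT and 25.2, 25.6 and 24.1 CPM in Dicer KO. In Ago2 null oocytes the Rab12 change of -0.33 ± 0.101 did not pass (adjusted p = 0.0132). Rab14 and Rab35, a regulator of fast recycling and actin, passed in none, with log2 fold changes between -0.14 and -0.05. In all, of 9 recycling Rabs 8 were tested in each comparison, with 2 up and 1 down each time and group medians of -0.09, -0.07 and -0.04 in Ago2 ADH, Ago2 null and Dicer KO. Beside this, 21.0% of all genes rose and 19.8% fell in Ago2 ADH, 18.6% and 18.7% in Ago2 null, and 16.9% and 17.6% in Dicer KO.

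**Figure D3:**
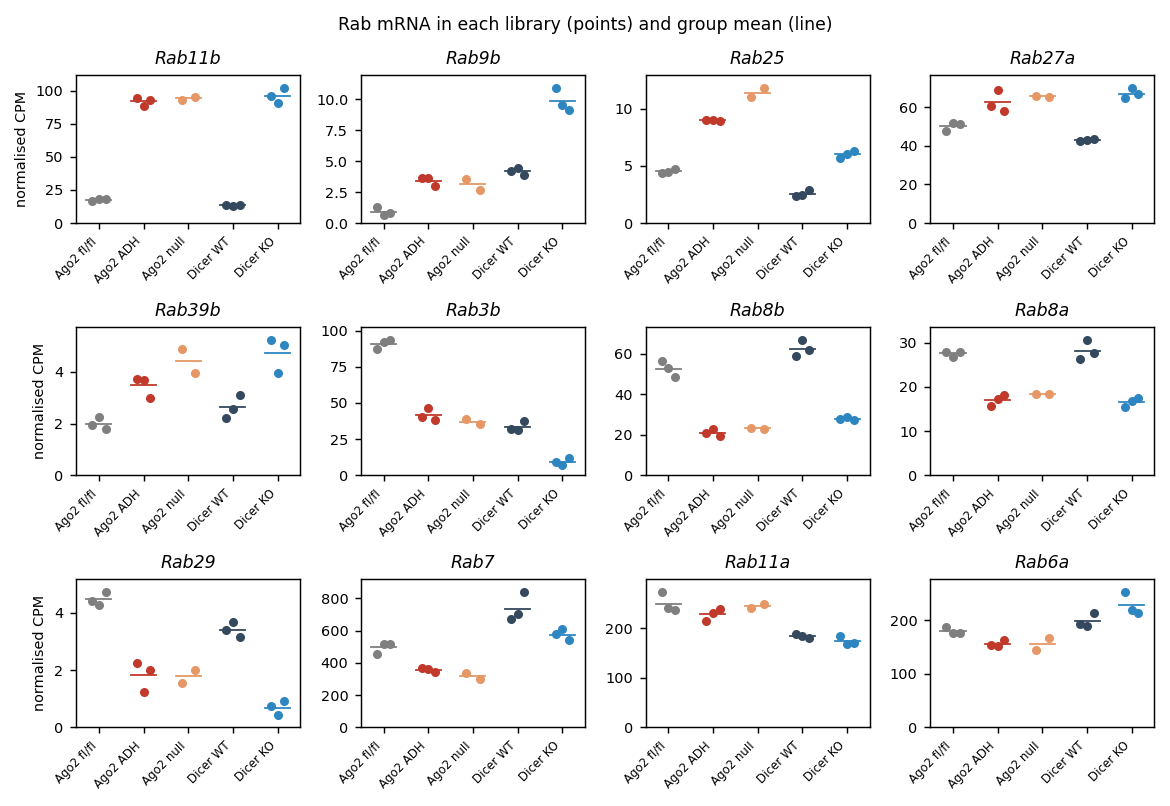
Normalised CPM of 12 Rab genes in each of the 14 libraries (points) with group means (lines); each vertical axis starts at 0. In the upper rows Rab11b, Rab9b, Rab25, Rab27a and Rab39b are higher in the mutants than in their controls, Rab3b, Rab8b, Rab8a, Rab29 and Rab7 are lower, and Rab11a overlaps.

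Exocytic and post-Golgi Rabs moved in both directions. Rab3b, a secretory vesicle Rab, was 87.6, 91.9 and 93.4 CPM in Ago2 fl/fl, 40.0, 46.8 and 38.3 in Ago2 ADH and 39.0 and 35.3 in Ago2 null. In the Dicer series it was 32.3, 31.2 and 37.4 CPM in WT and 9.16, 6.86 and 12.1 CPM in KO. The groups did not overlap, and the log2 fold changes were -1.08 ± 0.0698 (adjusted p = 2.30e-10), -1.25 ± 0.0742 (5.58e-10) and -1.83 ± 0.152 (1.12e-08). An antisense gene, 8030443G20Rik, shares 317 exonic bases with Rab3b, and since reads were counted without strand the transcripts cannot be told apart there. In all, 20 Rab genes share exonic bases with another gene. Called genes among them include Rab7 (Gm5577, 204 bases), Rab27a (Gm27186, 149), Rab10 (Rab10os, 132) and Rab22a (Mir6340, 119). The other Rab3 genes did not follow. Rab3d, the other abundant member, was 119, 110 and 115 CPM in Ago2 fl/fl and 118, 121 and 111 CPM in Ago2 ADH, with log2 fold changes of 0.07, 0.06 and -0.02 (adjusted p 0.289, 0.451 and 0.850). Rab3a, the synaptic and granule Rab, had log2 fold changes of 0.31, 0.33 and 0.47 with adjusted p of 0.0394, 0.0323 and 0.0423, so that it passed an FDR of 5% in each mutant but not 1%. Rab3c, at 0.467 to 3.71 CPM, passed in none. As a result Rab3b made up 43.3% ± 1.74 of the Rab3 level per kilobase in Ago2 fl/fl, 25% ± 1.03 in Ago2 ADH, 22.8% ± 1.23 in Ago2 null, 29.1% ± 3.03 in Dicer WT and 9.76% ± 2.53 in Dicer KO oocytes.

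Rab8a and Rab8b, which carry vesicles to the plasma membrane and the cilium, fell together. Rab8b was 56.6, 53.0 and 48.4 CPM in Ago2 fl/fl, 20.7, 22.8 and 19.4 in Ago2 ADH and 23.4 and 23.0 in Ago2 null. In the Dicer series it was 59.1, 66.8 and 62.0 CPM in WT and 27.9, 28.7 and 27.2 CPM in KO. Its log2 fold changes were -1.28 ± 0.0787 (adjusted p = 1.04e-10), -1.14 ± 0.0846 (9.76e-09) and -1.16 ± 0.0808 (9.32e-10). Rab8a fell less, from 28, 26.9 and 28 CPM in Ago2 fl/fl to 15.6, 17.2 and 18.1 CPM in Ago2 ADH and 18.5 and 18.3 CPM in Ago2 null. In the Dicer series it was 26.4, 30.6 and 27.8 CPM in WT and 15.4, 16.8 and 17.4 CPM in KO. The log2 fold changes of Rab8a were -0.66 ± 0.0851 (3.08e-06), -0.55 ± 0.0878 (7.18e-05) and -0.77 ± 0.104 (6.82e-06). The summed Rab8 level per kilobase went from 17.2 ± 0.876 to 8.16 ± 0.403 in Ago2 ADH and 8.94 ± 0.0927 in Ago2 null. In Dicer WT it was 19.4 ± 1.30 and in Dicer KO 9.54 ± 0.238. Rab10, a Rab8 relative, fell in Ago2 ADH oocytes by 0.18 on the log2 scale (SE 0.0465, adjusted p = 0.00355). It had the same -0.18 in Ago2 null oocytes without passing (adjusted p = 0.0131) and -0.07 in Dicer KO (0.441), and its call was lost without Ago2 fl/fl replicate 2 or Ago2 ADH replicate 2.

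Rab27a, which docks secretory granules, rose from 47.5, 51.9 and 51.4 CPM in Ago2 fl/fl to 60.5, 69.1 and 58.1 CPM in Ago2 ADH and 65.8 and 65.4 CPM in Ago2 null. It rose from 42.5, 43.0 and 43.6 CPM in Dicer WT to 64.6, 69.9 and 66.7 CPM in Dicer KO. The log2 fold changes were 0.36 ± 0.0699 (adjusted p = 0.000245), 0.42 ± 0.0715 (0.000120) and 0.65 ± 0.0727 (6.95e-07). Its paralog Rab27b stayed at 0.0346 to 0.766 CPM, too low for the Ago2 ADH comparison, and Rab27a was 99.5% to 100% of the pair in every library. Rab37 and Rab44, Rabs known from the granules of mast cells, rose in both Ago2 mutants at low levels. Rab37 was 0.259 to 0.459 CPM in Ago2 fl/fl, 1.06 to 1.93 in Ago2 ADH and 1.29 and 1.81 in Ago2 null, with log2 fold changes of 1.98 ± 0.379 (adjusted p = 0.000235) and 2.13 ± 0.400 (0.000321). The Ago2 null call was lost without Ago2 null replicate 1 (adjusted p = 0.0116). Rab44 was 0.115 to 0.237 CPM in Ago2 fl/fl, 0.900 to 0.990 in Ago2 ADH and 0.948 in both Ago2 null libraries, with log2 fold changes of 2.46 ± 0.446 (0.000139) and 2.45 ± 0.518 (0.000886). Leaving out either Ago2 null library ended that call (adjusted p = 0.0104 and 0.0110). In Dicer KO oocytes Rab37 had a log2 fold change of 1.30 ± 0.713 (adjusted p = 0.148), and Rab44 was too low to be tested. Of the 13 exocytic Rabs, 3 rose and 4 fell among 11 tested in Ago2 ADH, 3 rose and 3 fell among 12 in Ago2 null, and 1 rose and 3 fell among 11 in Dicer KO, with group medians of 0.07, 0.20 and -0.02. The shares of all genes up and down were 21.0% and 19.8% in Ago2 ADH, 18.6% and 18.7% in Ago2 null, and 16.9% and 17.6% in Dicer KO.

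Of the late endosome and lysosome Rabs that were called, 3 fell and 1 rose in each mutant. The shares of all genes down and up were 19.8% and 21.0% in Ago2 ADH, 18.7% and 18.6% in Ago2 null, and 17.6% and 16.9% in Dicer KO. Rab7, the most abundant Rab, was 456, 515 and 517 CPM in Ago2 fl/fl, 371, 360 and 344 in Ago2 ADH and 335 and 303 in Ago2 null, and 671, 701 and 837 CPM in Dicer WT and 579, 609 and 540 CPM in Dicer KO. The groups did not overlap. Its log2 fold changes were -0.42 ± 0.0541 (adjusted p = 2.70e-06), -0.60 ± 0.0678 (1.72e-06) and -0.35 ± 0.0753 (0.000853). Rab29, known at the trans-Golgi and at stressed lysosomes, was 4.42, 4.28 and 4.71 CPM in Ago2 fl/fl, 2.26, 1.23 and 1.99 in Ago2 ADH and 1.56 and 2.01 in Ago2 null, and 3.41, 3.68 and 3.15 CPM in Dicer WT and 0.742, 0.425 and 0.908 CPM in Dicer KO. It had the largest decrease of all Rab genes in Dicer KO oocytes, with log2 fold changes of -1.25 ± 0.214 (7.81e-05), -1.29 ± 0.208 (7.85e-05) and -2.28 ± 0.311 (7.75e-06). Rab32, which acts with Rab38 on lysosome-related organelles, fell by 0.47 (SE 0.0748), 0.42 (SE 0.0913) and 0.60 (SE 0.0976) on the log2 scale, with adjusted p of 3.62e-05, 0.00118 and 5.27e-05. The Ago2 null call of Rab32 was lost without Ago2 null replicate 1 (adjusted p = 0.0271). Rab38 itself had log2 fold changes of 0.11, 0.13 and -0.08 and passed in none (adjusted p 0.0664, 0.0904 and 0.352).

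Within the Rab9 pair, which returns cargo from late endosomes to the Golgi, the minor member rose. Rab9b was 1.26, 0.677 and 0.784 CPM in Ago2 fl/fl, 3.65, 3.63 and 3.01 in Ago2 ADH and 3.58 and 2.69 in Ago2 null, and 4.19, 4.48 and 3.91 CPM in Dicer WT and 10.9, 9.52 and 9.11 CPM in Dicer KO. The log2 fold changes were 1.96 ± 0.251 (adjusted p = 2.66e-06), 1.83 ± 0.296 (7.97e-05) and 1.24 ± 0.166 (6.27e-06). Rab9, at 19.7 to 29.6 CPM, passed in none (log2 fold changes -0.08, 0.05 and -0.31). Rab9b rose from 1.28% ± 0.477 of the pair per kilobase in Ago2 fl/fl to 5.08% ± 0.763 in Ago2 ADH and 4.24% ± 0.979 in Ago2 null. It was 5.50% ± 0.530 in Dicer WT and 14.5% ± 2.13 in Dicer KO. Among the 9 late endosome and lysosome Rabs, 1 rose and 3 fell in each mutant, of 7 tested in Ago2 ADH and 8 in each of the others. These counts stand beside the shares of all genes given above for this group.

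**Figure D4:**
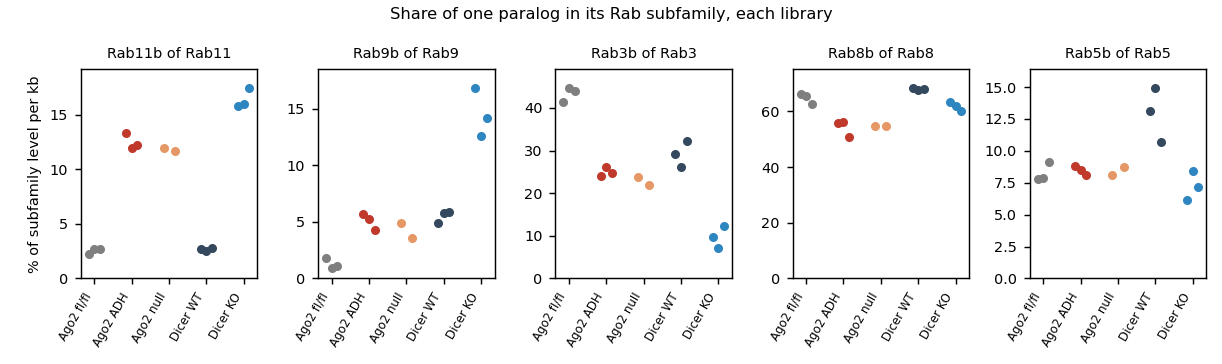
Share of 1 paralog in the summed level per kilobase of its Rab subfamily, in percent, for each library; each vertical axis starts at 0. Rab11b and Rab9b take a larger share in the mutants and Rab3b and Rab8b a smaller one, and Rab5b differs between Dicer WT (12.9%) and Dicer KO (7.23%).

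Of 8 early endosome Rabs 6 were tested in each comparison, and 1 fell in Ago2 ADH, 1 rose in Ago2 null and 2 fell in Dicer KO, with medians of -0.04, -0.12 and -0.20. Of all genes, 19.8% fell in Ago2 ADH, 18.6% rose in Ago2 null and 17.6% fell in Dicer KO. Rab5b fell in Dicer KO oocytes, from 11.2, 11.9 and 9.30 CPM to 5.45, 7.36 and 6.10 CPM (log2 fold change -0.77 ± 0.164, adjusted p = 0.000770). In Ago2 ADH and Ago2 null oocytes its values of 0.06 and -0.01 did not pass (adjusted p 0.714 and 0.980). Rab5a rose in Ago2 null oocytes (0.51 ± 0.136, adjusted p = 0.00520), a call lost without Ago2 fl/fl replicate 1 or 2 (adjusted p 0.0102 and 0.0262) or Ago2 null replicate 2 (0.107). It was 0.11 in Ago2 ADH and -0.12 in Dicer KO (adjusted p 0.462 and 0.512), and the opposite-strand gene Pp2d1 shares 221 exonic bases with it. Rab5c passed in none. The summed Rab5 level stayed near 27.4 ± 1.08 in Ago2 fl/fl, with 27.0 ± 0.0938 in Ago2 ADH, 26.1 ± 1.98 in Ago2 null, 26.4 ± 1.13 in Dicer WT and 27.4 ± 0.476 CPM per kilobase in Dicer KO. Rab31, a trans-Golgi and early endosome Rab, fell in Dicer KO oocytes from 4.71, 4.26 and 4.86 CPM to 1.52, 1.88 and 3.12 CPM (-1.07 ± 0.256, adjusted p = 0.00210), a call lost without Dicer KO replicate 1 or 2. Rab31 was -0.42 ± 0.203 in Ago2 ADH and -0.41 ± 0.203 in Ago2 null, which did not pass (adjusted p 0.0889 and 0.11). Rab22a fell by 0.25 in Ago2 ADH oocytes (SE 0.0742, adjusted p = 0.00935), and the call was lost when Ago2 fl/fl replicate 1 or 2 or any Ago2 ADH replicate was left out (adjusted p up to 0.0685). Its values of -0.15 ± 0.0907 in Ago2 null and -0.24 ± 0.0951 in Dicer KO did not pass (adjusted p 0.171 and 0.0509).

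Of 16 ER and Golgi Rabs, 3 of 13 tested were called in Ago2 ADH, 1 of 13 in Ago2 null and 1 of 12 in Dicer KO, and these were increases of genes at low level. Increases were called for 21.0%, 18.6% and 16.9% of all genes in Ago2 ADH, Ago2 null and Dicer KO. Decreases were called for 19.8%, 18.7% and 17.6%. Rab39b, known from neurons, rose from 1.95, 2.24 and 1.78 CPM in Ago2 fl/fl to 3.73, 3.69 and 3.01 CPM in Ago2 ADH and 4.89 and 3.96 CPM in Ago2 null. In the Dicer series it was 2.22, 2.56 and 3.10 CPM in WT and 5.23, 3.96 and 5.05 CPM in KO. Its log2 fold changes were 0.85 ± 0.196 (adjusted p = 0.00126), 1.19 ± 0.208 (0.000167) and 0.86 ± 0.222 (0.00384), and the Dicer KO call was lost in 4 of the 6 fits that leave out a library. The antisense gene Gm15063 shares 351 exonic bases with Rab39b. Rab30, a Golgi Rab, rose from 0.191 to 0.356 CPM in Ago2 fl/fl to 0.752 to 1.32 CPM in Ago2 ADH (1.97 ± 0.422, adjusted p = 0.000679). Its values of 1.44 ± 0.531 in Ago2 null and 0.49 ± 0.509 in Dicer KO did not pass (adjusted p 0.0331 and 0.464). Rab6b, a neuronal Rab6, rose in Ago2 ADH (1.01 ± 0.292, adjusted p = 0.00698) from 0.726 to 1.11 CPM to 1.5 to 2.44 CPM, a call lost without any of the Ago2 fl/fl replicates or without Ago2 ADH replicate 1. Rab6b was 0.89 ± 0.313 in Ago2 null and 0.24 ± 0.301 in Dicer KO, which did not pass (adjusted p 0.0269 and 0.539). Rab1a, Rab1b, Rab2a, Rab2b, Rab6a and Rab18 passed in none, with log2 fold changes from -0.17 to 0.22. Of the 4 Rabs of cilia and ubiquitin ligases, Rab28, known from photoreceptors, rose in Ago2 ADH (1.37 ± 0.371, adjusted p = 0.00447) and Ago2 null oocytes (1.51 ± 0.394, 0.00437) from 0.373 to 0.484 CPM to 0.807 to 1.32 CPM. This call was lost in 4 of the 6 Ago2 ADH fits and 4 of the 5 Ago2 null fits that leave out a library. In Dicer KO oocytes the Rab28 change of 0.38 ± 0.566 did not pass (adjusted p = 0.611).

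Ago2 ADH and Ago2 null oocytes, which by genotype differ in whether an Ago2 allele without slicer activity is left, were also compared directly. AGO2 protein was not measured in these data, and the lane codes differ between these groups too. Of 51 Rab genes tested, 0 passed (against 0.120% of all 14180 genes), 3 had an unadjusted p under 0.05 by edgeR, and DESeq2 also called 0 with 3 under 0.05. The share of all genes with an unadjusted p under 0.05 was not computed, and these counts are not read as a difference. The median absolute log2 difference over the Rab genes was 0.104, beside 0.123 over all genes. Rab5a (-0.42 ± 0.137, adjusted p = 0.289), Rab25 (-0.35 ± 0.126, 0.356) and Rab7 (0.16 ± 0.0638, 0.412) gave the smallest unadjusted p.

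The difference between the Ago2 ADH effect and the Dicer KO effect was tested as an interaction. Of 51 Rab genes, 2 passed (3.92%, against 3.74% of all 14341 genes), both with a lower log2 fold change in Ago2 ADH than in Dicer KO (against 2.45% of all genes). Rab6a, which returns vesicles to and within the Golgi, was 187, 177 and 176 CPM in Ago2 fl/fl and 153, 152 and 164 CPM in Ago2 ADH, but 193, 190 and 213 CPM in Dicer WT and 252, 219 and 213 CPM in Dicer KO. Its log2 fold changes of -0.15 ± 0.0512 and 0.20 ± 0.0708 did not pass on their own (adjusted p 0.0178 and 0.0251), and their difference was -0.41 ± 0.0907 (adjusted p = 0.00581). For Rab11b, which rose in both, the difference was -0.44 ± 0.101 (adjusted p = 0.00668). Neither call held in every setting, and each was lost with RLE normalization (adjusted p 0.0142 and 0.0132). Of the 12 fits that leave out a library, the Rab6a call was lost in 8, which left out any Ago2 fl/fl library, Ago2 ADH replicate 1 or 2, Dicer WT replicate 1 or 2 or Dicer KO replicate 1 (adjusted p up to 0.0256). The Rab11b call was lost in 9, which left out Ago2 fl/fl replicate 2 or 3, any Ago2 ADH library, Dicer WT replicate 1 or 2 or Dicer KO replicate 1 or 3 (adjusted p up to 0.0259). The Rab6a transcript shares 409 exonic bases with Mrpl48 on the opposite strand. Rab3b had a difference of 0.70 ± 0.170 (adjusted p = 0.0117) and Rab5b one of 0.78 ± 0.202 (0.0177), which passed 5% only. At 5% the difference had 2 Rab calls up and 4 down (against 3.48% and 5.26% of all genes).

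The proteins that act on Rabs were followed as lists. Their counts stand beside 21.0% of all genes up and 19.8% down in Ago2 ADH, 18.6% and 18.7% in Ago2 null, and 16.9% and 17.6% in Dicer KO oocytes. Of 8 prenylation, escort and GDI genes, 4 rose and 1 fell in Ago2 ADH, 4 rose and 1 fell in Ago2 null, and 3 rose and 2 fell in Dicer KO oocytes, with list medians of 0.30, 0.32 and 0.30. Chm, the Rab escort protein, was 4.01, 4.08 and 4.65 CPM in Ago2 fl/fl and 8.22, 6.2 and 7.24 CPM in Ago2 ADH (0.81 ± 0.148, adjusted p = 0.000138), and rose by 0.65 ± 0.159 in Dicer KO (0.00243). Rabggta, a subunit of the enzyme that attaches the prenyl groups, rose by 0.54 ± 0.132 (0.00219) and 0.50 ± 0.129 (0.00362), while Gdi2, which extracts Rabs from membranes, fell by 0.18 (SE 0.0472, 0.00296) and 0.23 (SE 0.0612, 0.00543). Chml, the second escort protein, fell in Dicer KO by 0.64 (SE 0.169, 0.00415) and was 0.17 ± 0.142 in Ago2 ADH (0.338). Calls in this list were lost for Gdi2 in Ago2 ADH without Ago2 fl/fl replicate 2 or Ago2 ADH replicate 1, for Rabggta without Ago2 fl/fl replicate 3 or Ago2 ADH replicate 2, and for all 4 genes in Dicer KO without at least 1 of the libraries (adjusted p up to 0.0275).

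Among 35 GEF genes, all tested, 3 rose and 5 fell in Ago2 ADH, 3 rose and 7 fell in Ago2 null, and 3 rose and 6 fell in Dicer KO oocytes. The largest change was that of Hps1, a subunit of the exchange factor for Rab32 and Rab38. It was 3.13, 3.08 and 2.49 CPM in Ago2 fl/fl, 49.2, 51.3 and 48.1 in Ago2 ADH and 52.3 and 58.1 in Ago2 null, and 2.04, 2.56 and 2.00 CPM in Dicer WT and 25.6, 23.3 and 29.3 CPM in Dicer KO. The log2 fold changes were 4.14 ± 0.0984 (adjusted p = 5.28e-17), 4.29 ± 0.110 (8.28e-15) and 3.57 ± 0.153 (6.13e-13). Its partner subunit Hps4 had -0.27, -0.14 and -0.12 (adjusted p 0.0551, 0.376 and 0.582). Dennd6a, an exchange factor for Rab14, was 231, 224 and 224 CPM in Ago2 fl/fl and 324, 319 and 317 CPM in Ago2 ADH, and 258, 247 and 253 CPM in Dicer WT and 582, 572 and 595 CPM in Dicer KO. The increases of 0.55 ± 0.0449 (7.06e-09) and 1.21 ± 0.0568 (2.44e-12) differed by -0.71 ± 0.0669 (1.66e-07). Rin2, a Rab5 exchange factor, rose by 0.75 ± 0.120 (3.72e-05) in Ago2 ADH and 0.74 ± 0.177 (0.00213) in Dicer KO. Denn2b fell by 1.08 (SE 0.169, 2.75e-05) and 1.01 (SE 0.194, 0.000294), Dennd3 by 0.75 (SE 0.100, 4.49e-06) and 0.44 (SE 0.121, 0.00550), and Mon1b, part of the Rab7 exchange factor, by 0.32 (SE 0.0921, 0.00720) and 0.57 (SE 0.126, 0.00113). Without Dicer WT replicate 2 the adjusted p of Mon1b was 0.0116.

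Of 42 GAP genes 36 were tested, and 5 rose and 8 fell in Ago2 ADH, 2 rose and 11 fell in Ago2 null, and 5 rose and 10 fell in Dicer KO oocytes, with medians of -0.07, -0.11 and -0.13. Rabgap1 rose by 0.74 ± 0.0725 in Ago2 ADH (adjusted p = 8.16e-08) and by 0.27 ± 0.0720 in Dicer KO (0.00472). Rab3gap1, the catalytic subunit of the Rab3 GAP, fell by 0.64 (SE 0.0749, 8.94e-07) and 0.81 (SE 0.0691, 1.61e-08). Tbc1d32 and Sgsm2 fell in Ago2 ADH by 0.81 and 0.67 (adjusted p 3.47e-05 and 9.63e-05), Tbc1d30 fell in Dicer KO by 0.93 (3.94e-05), Tbc1d8b rose in Ago2 ADH by 0.47 (0.00563), and Tbc1d24 and Tbck rose in Dicer KO by 0.85 and 0.84 (0.00391 and 0.000701). The Tbc1d8b call was lost in 5 of the 6 fits without a library (adjusted p up to 0.0454) and that of Tbc1d24 without Dicer WT replicate 3 or Dicer KO replicate 2 or 3.

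Of 42 effector genes, 39 were tested in Ago2 ADH with 6 up and 9 down, 40 in Ago2 null with 6 up and 9 down, and 38 in Dicer KO with 6 up and 11 down, with medians of -0.06, -0.09 and -0.14. Optn, an effector of Rab8, was 17.3, 18.1 and 17.7 CPM in Ago2 fl/fl, 81.5, 90 and 82.8 in Ago2 ADH and 86.6 and 82.7 in Ago2 null, and 15.4, 15.8 and 15 CPM in Dicer WT and 73.7, 75.2 and 77.6 CPM in Dicer KO. Its log2 fold changes were 2.31 ± 0.0673 (adjusted p = 1.13e-15), 2.30 ± 0.0734 (1.48e-13) and 2.30 ± 0.0804 (3.49e-14), in oocytes in which both Rab8 mRNAs fell. Sytl5, an effector of Rab27, was 0.276, 0.525 and 0.976 CPM in Ago2 fl/fl, 5.64, 5.52 and 6.68 in Ago2 ADH and 4.97 and 5 in Ago2 null, and 2.66, 1.32 and 1.74 CPM in Dicer WT and 11.5, 12 and 14.0 CPM in Dicer KO (3.39 ± 0.289, 3.12 ± 0.334 and 2.72 ± 0.218, adjusted p 1.28e-08, 8.71e-07 and 7.12e-09). Other Rab27 effectors, named after their values were seen, went both ways, as Myrip rose by 0.61, 0.68 and 0.68 (adjusted p 2.03e-07, 2.55e-06 and 2.27e-07) and Sytl2 fell by 0.79, 0.83 and 0.65 (4.96e-09, 8.59e-08 and 1.02e-06). Ocrl, an inositol phosphatase that binds several Rabs, was 34.3, 40.9 and 35.1 CPM in Ago2 fl/fl, 12.7, 15.8 and 15.4 in Ago2 ADH and 11.1 and 9.67 in Ago2 null, and 35.8, 34.8 and 32.2 CPM in Dicer WT and 6.65, 7.08 and 7.32 CPM in Dicer KO. It fell by 1.28 (SE 0.0971, 2.29e-09), 1.78 (SE 0.109, 8.91e-10) and 2.28 (SE 0.110, 3.71e-12), and its Ago2 ADH and Dicer KO effects differed by 0.95 ± 0.146 (0.000169). Appl1, an early endosome adaptor of Rab5 and Rab21, rose by 1.41 ± 0.0470 (7.63e-15) in Ago2 ADH and 0.87 ± 0.0676 (4.16e-09) in Dicer KO, which differed by 0.49 ± 0.0825 (0.000553). Rilpl1 fell, with log2 fold changes of -1.10 ± 0.243 (0.000883) in Ago2 ADH and -1.46 ± 0.378 (0.00398) in Dicer KO, the latter lost without Dicer WT replicate 1 or 2 or Dicer KO replicate 2 or 3. Near-identical copies of these partner genes were not searched for.

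The actin and motor genes that act with Rab11a vesicles in oocytes numbered 6, of which 1 fell in Ago2 ADH, 2 fell in Ago2 null, and 1 rose and 1 fell in Dicer KO. Fmn2, an actin nucleator, fell in Ago2 ADH by 0.21 (SE 0.0443, adjusted p = 0.000610) and was -0.14 ± 0.0633 in Dicer KO (0.0885). Myo5b, the vesicle motor, fell in Dicer KO by 0.25 (SE 0.0594, 0.00167). Myo5c rose there by 2.08 ± 0.507 (0.00248) from 0.215 to 0.362 CPM to 0.566 to 1.61 CPM, a call lost in 4 of the 6 fits without a library, and Spire1 passed in none.

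**Figure D5:**
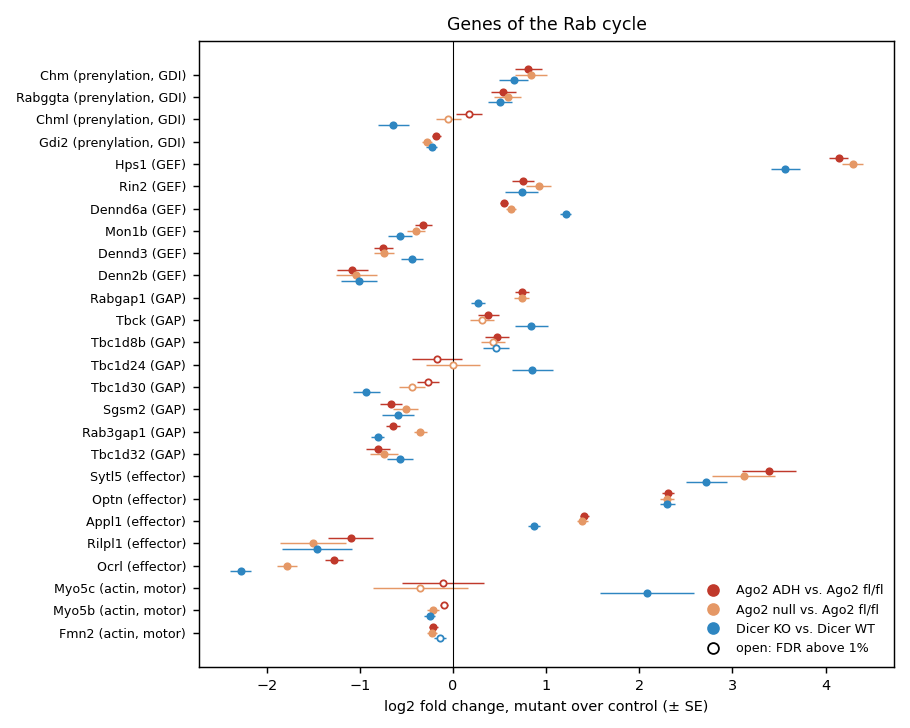
Log2 fold change of mutant over control (± SE) for named genes of the Rab cycle, grouped by role. Filled points passed an FDR of 1%. Hps1 lies furthest to the right (4.29 in Ago2 null), followed by Sytl5 (3.39 in Ago2 ADH) and Optn (2.31), and Ocrl lies furthest to the left (-2.28 in Dicer KO).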

How the data were processed

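RNA-seq was made from amplified oocyte cDNA and sequenced as paired ends. The authors aligned the reads to mm10 with TopHat2 and deposited raw counts per RefSeq transcript from htseq-count, counted without strand, and the submitters' processing notes name TopHat2 2.0.7, HTSeq 0.6.1 and DESeq 1.10.0. The paper gives different alignment settings for reads of different lengths. Which libraries had which read length is not given in the sources used here. Effects of read length and of these settings on the counts were not tested. Rows for reads outside transcripts or with several alignments were kept out of library sizes. Of 26495 transcripts, 26077 were given a symbol from RefSeq and 117 from GENCODE. Transcripts were tested with the quasi-likelihood test of edgeR 4.0.16 (R 4.3.3) after filterByExpr (minimum count 10, minimum total 15) and TMM scaling, each comparison on its own libraries, with Benjamini-Hochberg adjustment over all transcripts tested and an FDR of 1%. Background shares count 1 transcript per gene. SE is the absolute log2 fold change divided by the square root of F. CPM values are TMM-scaled over all 14 libraries. The steps were tested on simulated data. Tables were made with Python 3.11.15 and pandas 2.3.3.

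Members and lists were chosen with earlier results of these data known. Genes were named by these rules: 10 listed Rab genes (Rab3a, Rab5a, Rab6a, Rab7, Rab8a, Rab11a, Rab14, Rab27a, Rab27b and Rab35), the 4 largest called increases and decreases in each mutant, every Rab called in Ago2 ADH vs. Ago2 null or in the difference of effects, the 5 highest Rabs per length in Ago2 fl/fl, their subfamily members, the 2 largest called increases and decreases of each partner list in Ago2 ADH and Dicer KO, and Ago2 and Dicer1. Further Rab genes were named with their values. Alternatives were DESeq2 1.42.0, RLE scaling, other filters, an FDR of 5%, 1 transcript per gene, 1 fit over all 5 groups, the replicate number as a block and leaving out each library. No libraries agreed within sampling noise (chi-square per degree of freedom 6.54 to 14.9 within groups). Counting error is the only error that the floor of 3 counts covers. Protein sequences were not used here.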

Additional observations from a re-analysis of the deposited data

Results flagged for a closer look

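For 5 genes the Ago2 ADH effect differed from the Dicer KO effect by the interaction test of edgeR at an adjusted p below the 1% FDR. The difference in log2 fold change was -0.41 for Rab6a, which lay lower in the Ago2 ADH libraries than in their controls and did not pass in either mutant alone. It was -0.44 for Rab11b, which rose in both mutants. Among the partner genes it was -0.71 for Dennd6a and 0.49 for Appl1, which rose in both mutants, and 0.95 for Ocrl, which fell in both. The Dennd6a, Appl1 and Ocrl calls were kept in each of the 20 alternatives, with differences of -0.73 to -0.68, 0.42 to 0.54 and 0.89 to 1.04. Among these alternatives the FDR of 5% is the same fit and cannot lose a call made at 1%. Each effect was taken within its own series.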

How the results depend on the processing

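Of the Rab calls, 14 of 19 in Ago2 ADH, 10 of 16 in Ago2 null, 12 of 14 in Dicer KO and 0 of 2 in the difference of effects were kept under every alternative run, and 0 reversed. The alternative at an FDR of 5% cannot lose a call made at 1%. A fit in which a filter removed the gene did not count as a loss. At an FDR of 5%, 14 Rab genes rose and 10 fell in Ago2 null (24.8% and 24.5% of all genes), 9 rose and 11 fell in Dicer KO (22.8% and 23.4%), and 6 passed for the Ago2 ADH effect minus the Dicer KO effect (2 up, 4 down, against 3.48% and 5.26%). For that difference RLE normalization gave 1 call (1 up, 0 down) and DESeq2 and the fit with no filter each gave 3 (1 up, 2 down). Leaving out each replicate in turn gave 0 to 2 calls in the difference of effects (0 to 1 up, 0 to 2 down), against 2 as reported. The share of all genes called in these fits, and in the block fit below, was not computed. The calls up were of genes other than Rab6a and Rab11b, whose differences stayed negative in every alternative. The causes were not tested. The log2 fold change of Rab11a in Ago2 null oocytes, which did not pass, was -0.02 with all 5 groups in one fit and from -0.02 to 0.08 when each library was left out in turn. That of Rab14, which did not pass either, ranged from -0.17 to 0.03 in those fits. Deviations of same-numbered libraries, taken over all transcripts tested, correlated at -0.126 to 0.0408. Correlations over so many transcripts of few libraries cannot exclude a shared collection round. With the replicate number as a block, the difference of effects had 1 call (1 up, 0 down), Rab11a in Ago2 null was -0.03, and Rab6b in Ago2 ADH, Rab28 in Ago2 null, and Gdi2 (adjusted p = 0.0161) and Rilpl1 (0.0121) in Dicer KO no longer passed.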
